A study of Equus caballus with 25 samples.

Results

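CFTR, CTTNBP2 and MET are neighbouring genes of the horse, and their transcripts were followed in the endometrium, the lining of the uterus, over the oestrous cycle. They are 3 of the 620 genes that could be named on the array and were measured by 6 of its 43603 probes. These were chosen by their RefSeq transcript: 2 probes for CFTR (NM_001110510), 1 for CTTNBP2 (NM_001114145) and 3 for MET (NM_001114147). All 6 were bright enough to be tested, as were 35770 probes in all. The genes were singled out because their levels over the days had been seen to differ, so their levels and the differences between days are given as a description, with no test. In the RefSeq gene table of the assembly TB-T2T, MET comes before CFTR with 7 gene entries between them, and CFTR comes before CTTNBP2 with 1 entry between them.

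CFTR encodes the anion channel that is opened by cyclic AMP and carries chloride and bicarbonate across the apical membrane of epithelia. In the uterus it helps to set the volume and the acidity of the luminal fluid, and in rodents oestrogen is known to raise its expression there. CTTNBP2 encodes a protein that binds cortactin and striatin and thereby the actin cytoskeleton and a phosphatase complex, best known from the dendritic spines of neurons. MET encodes the receptor tyrosine kinase of hepatocyte growth factor, through which stromal cells act on the growth and movement of epithelial cells.

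The biopsies came from 5 cycling Bavarian Warmblood mares, 1 biopsy per mare on each of days 0, 3, 8, 12 and 16, which gave 25 one-colour arrays in 5 groups of 5. Day 0 was the day of ovulation, days 3, 8 and 12 are labelled early, mid and late luteal phase, and day 16 the beginning of an ovulatory phase. The mares are separate animals within a day and the same animals across days, sampled over several cycles, and no treatment is given. The labels do not give the age of the mares. A biopsy holds all cell types of the tissue, so that fewer cells of a type and less RNA per cell cannot be told apart. Levels are log2 signals minus the 75th percentile of the same array, so a level of 0 lies at the 75th percentile. Values of different probes are not comparable as amounts.

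The 75th percentile of the signal lay between 698 and 3701 over the arrays, with a median of 895 on day 0 and of 1559 to 2001 on the other days. The share of spots well above background ran from 70.3% to 88.1% by array, and 0 spots were saturated. The number of arrays, 5 per day, limits the precision of each value. Of the markers of cell types, 1 of 13 for epithelium (ESRP1), 2 of 10 for stromal fibroblasts (LUM and DCN) and 1 of 8 for endothelium (PECAM1) had a tested probe. All 4 were well above background on every array.

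CFTR was high around oestrus and in the early luteal phase and low in the mid and late luteal phase. On day 0 its level, measured by the brighter probe, was 1.21, 1.84, 0.91, 0.97 and 2.83 in mares 1 to 5. On day 3 it was 1.97, 1.88, 2.22, 2.74 and 2.01. Mare 5 stood highest on day 0, and the other mares had more on day 3 than on day 0. On day 8 the level was −0.03, 0.06, 0.90, 0.42 and 1.03, and on day 12 it was −0.18, 0.28, −0.23, 0.20 and 1.25. On day 16 it was 1.25, 1.53, 2.14, 3.38 and 1.96. By this probe every mare had less CFTR on days 8 and 12 than on days 0, 3 and 16 (5 of 5 mares). In mare 3 the levels of day 8 and day 0 were nearly equal (0.90 and 0.91).

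The means of CFTR were 1.55 ± 0.81 (SD, n = 5) on day 0, 2.16 ± 0.35 on day 3, 0.47 ± 0.48 on day 8, 0.27 ± 0.59 on day 12 and 2.05 ± 0.82 on day 16. Day 8 was below day 3 by a log2 difference of −1.69 ± 0.39 (standard error of the model of all arrays, 95% interval −2.49 to −0.89), a 3.23-fold lower level, and the ranges of these days did not overlap. Day 16 was above day 12 by 1.79 ± 0.39 (0.99 to 2.59), a 3.45-fold higher level in 5 of 5 mares, with 1 late luteal biopsy (mare 5) reaching the range of day 16. The intervals of the other steps spanned 0. These were 0.61 ± 0.39 from day 0 to day 3 (−0.19 to 1.41), −0.21 ± 0.39 from day 8 to day 12 (−1.01 to 0.59) and −0.50 ± 0.39 for day 0 against day 16 (−1.30 to 0.30). In order of the mean, the days ran 3, 16, 0, 8 and 12, and each overlapped the next. From day 3 to day 12, the highest and lowest of them, the level differed 3.73-fold and the ranges did not overlap.

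The dimmer CFTR probe gave the same order of the day means. Its means were −4.90 ± 0.98 on day 0, −3.31 ± 0.49 on day 3, −5.32 ± 0.61 on day 8, −5.48 ± 0.56 on day 12 and −3.48 ± 0.93 on day 16. It was well above background on 24 of 25 arrays, the exception being day 0 of mare 2 with a processed signal of 7.90. The signals were also low on day 8 (20.3 to 77.6) and day 12 (25.7 to 87.4), against 116 to 408 on day 3, so the differences that involve these days rest on dim spots. The difference of day 8 from day 3 was −2.01 ± 0.45, in 5 of 5 mares and with no overlap. That of day 16 from day 12 was 2.001 ± 0.45 in 4 of 5 mares, with overlap, and it was −0.19 in mare 5. In mare 2 the dimmer probe was lower on day 0 (−6.46) than on days 8 (−5.20) and 12 (−5.71). In mare 5 it was lower on day 16 (−4.83) than on days 8 (−4.43) and 12 (−4.63). The probes also parted at ovulation. Day 3 was above day 0 by 1.59 ± 0.45 on the dimmer probe (0.66 to 2.52, in 5 of 5 mares and with no overlap), against 0.61 ± 0.39 on the brighter one. Deviations from the day means, which leave out the change with the day, were only loosely related between both probes (Pearson r = 0.25 over 25 arrays).

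CTTNBP2 was high on days 8 and 12, where CFTR was low. On day 0 its level was 0.16, 0.26, 0.41, 0.48 and 0.08 in mares 1 to 5, and on day 3 it was 0.61, 0.52, 0.46, 0.37 and 1.33. On day 8 it was 3.19, 2.82, 2.92, 3.25 and 2.57, and on day 12 it was 3.05, 3.16, 3.36, 2.85 and 3.102. All 10 biopsies of days 8 and 12 lay above all 15 biopsies of the other days. On day 16 the level was 0.56, 0.94, 0.96, 0.57 and 1.65, again near that of day 3, with mare 5 highest on both of these days.

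The means of CTTNBP2 were 0.28 ± 0.17 (SD, n = 5) on day 0, 0.66 ± 0.39 on day 3, 2.95 ± 0.28 on day 8, 3.11 ± 0.19 on day 12 and 0.94 ± 0.45 on day 16. Day 8 was above day 3 by 2.29 ± 0.21 (1.86 to 2.72), a 4.89-fold higher level. Day 16 was below day 12 by −2.17 ± 0.21 (−2.60 to −1.74), a 4.50-fold lower level. Both differences had the same sign in 5 of 5 mares, and the ranges did not overlap. Day 8 and day 12 differed by 0.16 ± 0.21 (−0.27 to 0.58) and overlapped. At the low end, day 3 was above day 0 by 0.38 ± 0.21 (−0.04 to 0.81), and day 0 was below day 16 by −0.66 ± 0.21 (−1.09 to −0.23) in 5 of 5 mares and without overlap. The days ran 12, 8, 16, 3 and 0 in order of the mean, and the gap between days 8 and 16 was the only one between neighbours in that order without overlap. From the lowest to the highest day the level differed 7.11-fold. All 25 arrays measured CTTNBP2 well above background, but with a single probe no other sequence of the transcript was compared.

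**Figure D1:**
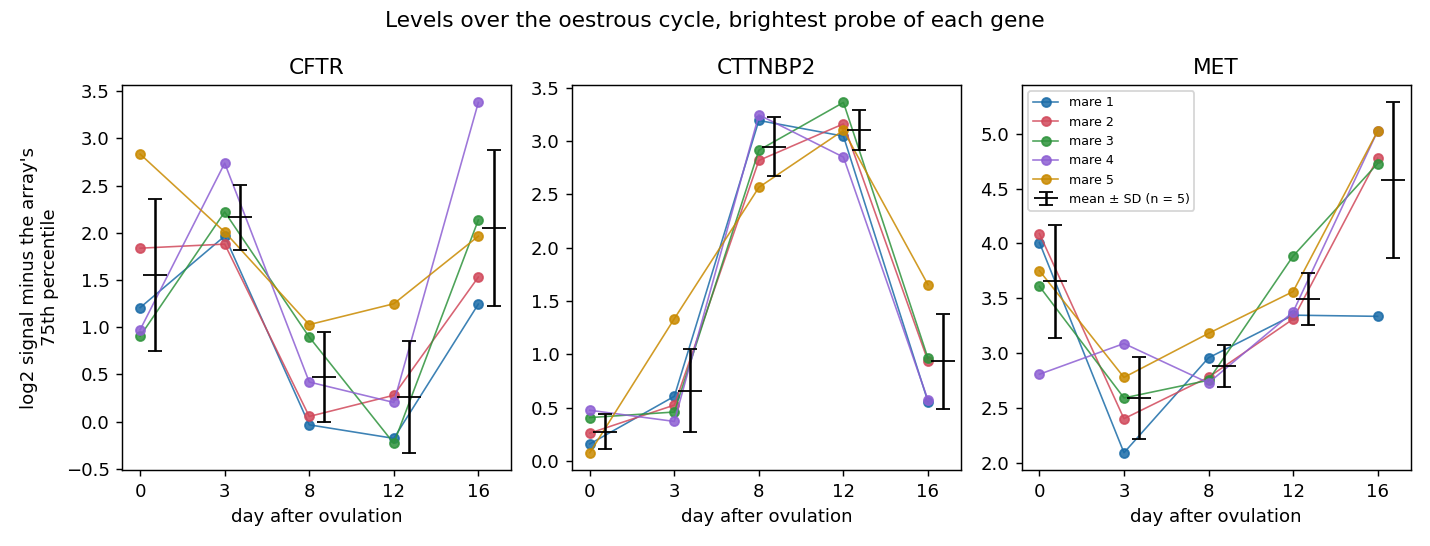
Levels of CFTR, CTTNBP2 and MET (y axis, log2 signal minus the 75th percentile of the array; scales differ between panels) on the 5 days of the cycle (x axis, days after ovulation, evenly spaced), by the brightest probe of each gene. Coloured points and lines are the 5 mares, black marks the mean ± SD. CFTR dips and CTTNBP2 peaks on days 8 and 12, with means of 0.47 and 0.27 against 2.95 and 3.11, while MET has its highest mean, 4.58, on day 16.

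Between days 3 and 8 and between days 12 and 16, CFTR by its brighter probe and CTTNBP2 moved in opposite directions in 5 of 5 mares. From day 0 to day 3 both means rose, by 0.61 for CFTR and 0.38 for CTTNBP2. Both were lower on day 0 than on day 16, by −0.50 and −0.66. From day 8 to day 12 they differed by only −0.21 and 0.16. The intervals of CFTR spanned 0 in these 3 comparisons. By the dimmer CFTR probe, mare 5 had the same direction as CTTNBP2 from day 12 to day 16 (−0.19 against −1.45). With the brighter probe, the biopsies fell into 2 separate sets. In the 10 of days 8 and 12, CTTNBP2 lay between 2.57 and 3.36 and CFTR between −0.23 and 1.25. In the 15 of days 0, 3 and 16, CTTNBP2 lay between 0.08 and 1.65 and CFTR between 0.91 and 3.38. Within the sets the genes were less related, with a Pearson r of −0.43 over the 10 and of −0.00056 over the 15 biopsies. These values are a description over arrays that share mares and slides.

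**Figure D2:**
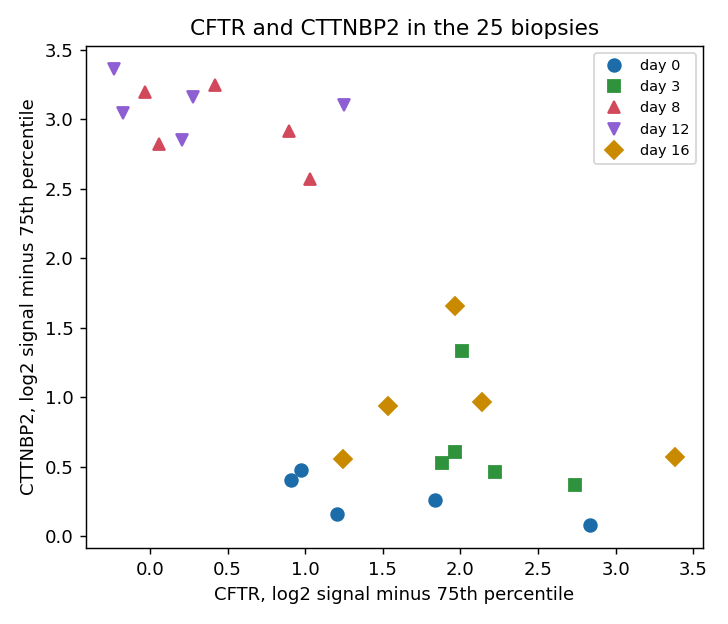
CTTNBP2 (y axis) against CFTR (x axis), both as log2 signal minus the 75th percentile of the array, with 1 point per biopsy and a colour and symbol for each day. The 10 biopsies of days 8 and 12 form a set of their own at the upper left, where CTTNBP2 is at least 2.57. Among the other 15, from 0.08 to 1.65 in CTTNBP2, no slope is visible.

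MET followed neither of them throughout. By the brightest probes, it moved in the same direction as CFTR from day 12 to day 16 in 4 of 5 mares. From day 3 to day 8 it moved in the opposite direction to CFTR in 4 of 5 mares. The means of all 3 genes were lower on day 0 than on day 16. On day 0 the level of MET, by the brightest of 3 probes, was 4.01, 4.09, 3.61, 2.81 and 3.75 in mares 1 to 5. On day 3 it was 2.09, 2.40, 2.59, 3.09 and 2.78. Mare 4, lowest on day 0 and highest on day 3, was the only mare without less MET on day 3. On day 8 the level was 2.96, 2.78, 2.75, 2.73 and 3.18, and on day 12 it was 3.35, 3.31, 3.88, 3.37 and 3.56. Each mare had more MET on day 12 than on day 8, and the ranges did not overlap. On day 16 the level was 3.34, 4.78, 4.73, 5.02 and 5.02, so that mare 1 lay far below the others.

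The means of MET were 3.65 ± 0.51 (SD, n = 5) on day 0, 2.59 ± 0.38 on day 3, 2.88 ± 0.19 on day 8, 3.50 ± 0.24 on day 12 and 4.58 ± 0.71 on day 16. Day 3 was below day 0 by −1.06 ± 0.28 (−1.64 to −0.49). Day 8 was above day 3 by 0.29 ± 0.28 (−0.29 to 0.87), day 12 above day 8 by 0.62 ± 0.28 (0.04 to 1.19) and day 16 above day 12 by 1.08 ± 0.28 (0.50 to 1.66). Day 0 was below day 16 by −0.92 ± 0.28 (−1.50 to −0.35) in 4 of 5 mares. The days ran 16, 0, 12, 8 and 3 in order of the mean, and only days 12 and 8 did not overlap among neighbours in that order. The level on day 16 was 3.96-fold that on day 3. With mare and slide both in the model, the difference of day 3 from day 0 shrank to −0.36 ± 0.35. Within 1 of the 3 slides that held both days, the one with both biopsies of mare 4, it was 0.28. Between days 12 and 16 it was −0.01 within 1 of 3 slides, the one that held both biopsies of mare 1.

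The other MET probes, which varied together (r = 0.99 over 25 arrays and 0.98 for deviations from the day means), put more weight on the late cycle. The means of the brighter of them were −2.12 ± 0.47 on day 0, −2.52 ± 0.53 on day 3, −2.58 ± 0.39 on day 8, −1.54 ± 0.55 on day 12 and −0.24 ± 1.01 on day 16. Day 16 was above day 12 by 1.31 ± 0.38 on this probe and by 1.25 ± 0.41 on the last, and day 12 above day 8 by 1.03 ± 0.38 and 1.15 ± 0.41. From day 0 to day 3 they differed by only −0.40 ± 0.38 and −0.37 ± 0.41, with 3 of 5 mares lower on each. From day 3 to day 8 their differences were −0.05 ± 0.38 and −0.23 ± 0.41, opposite in sign to the brightest probe. All 3 probes had their highest mean on day 16. The lowest mean lay on day 3 for the brightest and on day 8 for the others, so the low point of MET depends on the probe.

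**Figure D3:**
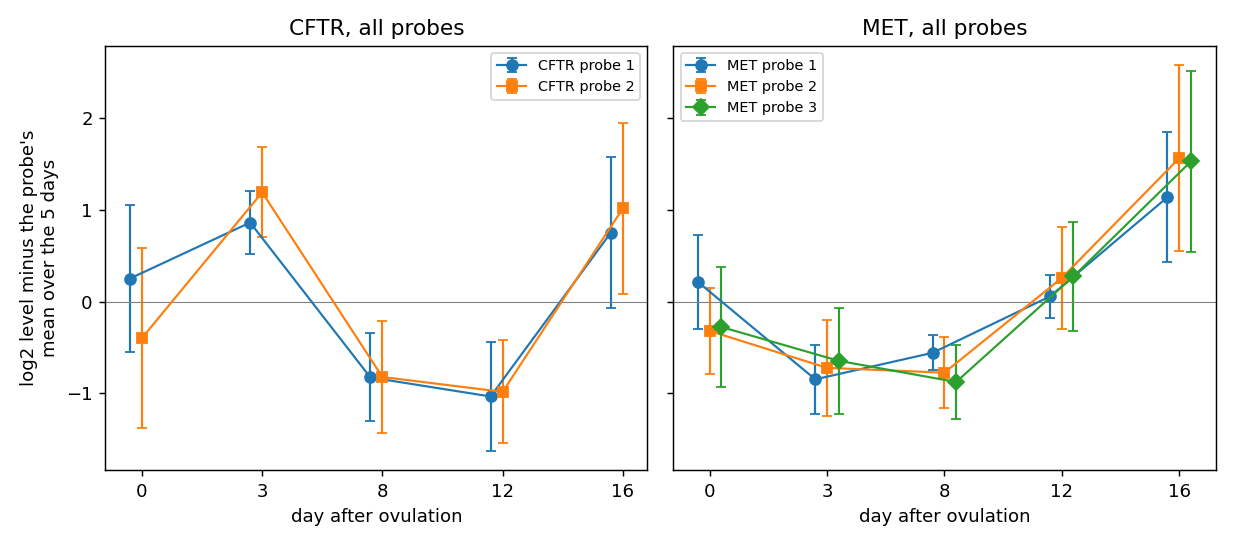
Day means of every CFTR and MET probe, each shown relative to its own mean over the 5 days (y axis, log2; bars are the SD of 5 mares) against the day after ovulation (x axis, evenly spaced, points shifted sideways for clarity). From day 0 to day 3 the CFTR probes differ in slope (0.61 and 1.59), as do those of MET (−1.06, −0.40 and −0.37), and all MET probes are highest on day 16.

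The model of all 35770 probes gave the following calls at an adjusted p under 0.05, which describe the choice of these genes and are not evidence for it. Over the 5 days all 6 probes were called, against 35.8% of all probes. From day 0 to day 3, 1 probe was called higher (dimmer CFTR) and 1 lower (brightest MET), against 7.01% and 5.66% of all probes (12.7% in either direction). Ranges of these days did not overlap for 1 of 6, against 7.8% of all probes. From day 3 to day 8, 1 was called higher (CTTNBP2) and 2 lower (both CFTR), against 6.05% and 7.72% (13.8% in either direction), and 3 of 6 had no overlap, against 14.2% of all probes without overlap. From day 8 to day 12, 0 of 6 were called, against 1.1% of all probes, and 1 had no overlap, against 9.54% without overlap. From day 12 to day 16, 4 were called higher and 1 lower, against 3.86% and 4.22% (8.07% in either direction), and 1 had no overlap, against 6.56% without overlap. For day 0 against day 16, 0 were called higher and 2 lower, against 2.3% and 2.41% (4.71% in either direction), and 1 had no overlap, against 3.49% without overlap. Successive comparisons share the arrays of 1 day.

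The mares were compared as a measure that did not enter the choice of the genes. In limma's F test over the 5 mares with the day in the model, adjusted over all probes, 13% of probes were called. None of the 3 genes was called, which at such a share does not set them apart from other probes. CFTR had an adjusted p of 0.214, CTTNBP2 of 0.845 and MET of 0.631 in that test with limma. The mean deviation of a mare from the day means ran from −0.46 (mare 1) to 0.52 (mare 5) for CFTR, from −0.08 to 0.16 for CTTNBP2 and from −0.29 to 0.22 for MET. Slides 1 to 5 each held arrays of a single mare and only slides 6 and 7 mixed mares, so mare and slide can hardly be told apart. With the slide in the model 0.014% of all probes were called. Deviations of CFTR and MET from the day means had a Pearson r of 0.46 over the 25 arrays, those of CFTR and CTTNBP2 −0.32 and those of CTTNBP2 and MET 0.16. Taken with the dimmer CFTR probe, the r was −0.02 with the brightest MET probe and 0.44 with the next, so the relation within days depends on the probe.

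Of the 38 other gene entries between and around the 3 genes (15 on either side), 8 had a named probe, and all 8 were tested. Together with the 3 genes their genome order is TES, CAV2, CAV1, MET, CAPZA2, ST7, WNT2, ASZ1, CFTR, CTTNBP2 and ING3. Over the 8 without the 3 genes, the median difference was −0.23 for day 8 minus day 3 and 0.38 for day 16 minus day 12, against 0.08 and −0.07 for all probes. In the limma F test over the days 4 of 8 passed, against 35.8% of all probes. In the steps that end on day 3, day 8 and day 12, limma called 0 of 8 each, against 12.7%, 13.8% and 1.1% of all probes. From day 12 to day 16 it called 2 of 8 higher and 0 lower, against 3.86% and 4.22% of all probes. For day 0 against day 16 it called 0 of 8 higher and 1 lower, against 2.3% and 2.41%.

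ASZ1, a germ cell gene that lies next to CFTR among the named genes, rose from day 12 to day 16 by 1.02 ± 0.27 (limma adjusted p = 0.0184, in 4 of 5 mares). Its means were −2.42 ± 0.32 on day 0, −2.59 ± 0.33 on day 3, −3.35 ± 0.35 on day 8, −3.83 ± 0.45 on day 12 and −2.81 ± 0.62 on day 16. Its difference from day 3 to day 8 was −0.76 ± 0.27 in 5 of 5 mares and did not pass (limma adjusted p = 0.0650). TES, which encodes a protein of focal adhesions, rose by 0.63 ± 0.17 from day 12 to day 16 (limma adjusted p = 0.0211, in 5 of 5 mares), as did its other probe by 0.61 ± 0.18 (0.0346, in 4 of 5). CAV2, which encodes a caveolin, was lower on day 0 than on day 16 by −0.84 ± 0.21 (limma adjusted p = 0.0238, in 4 of 5 mares). Its 2 other probes did not pass (0.0858 and 0.0822), and with the slide in the model the call was lost. CTTNBP2 was the only one of the 11 genes with a positive difference above 1 from day 3 to day 8, and the only one with a difference below −1 from day 12 to day 16.

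**Figure D4:**
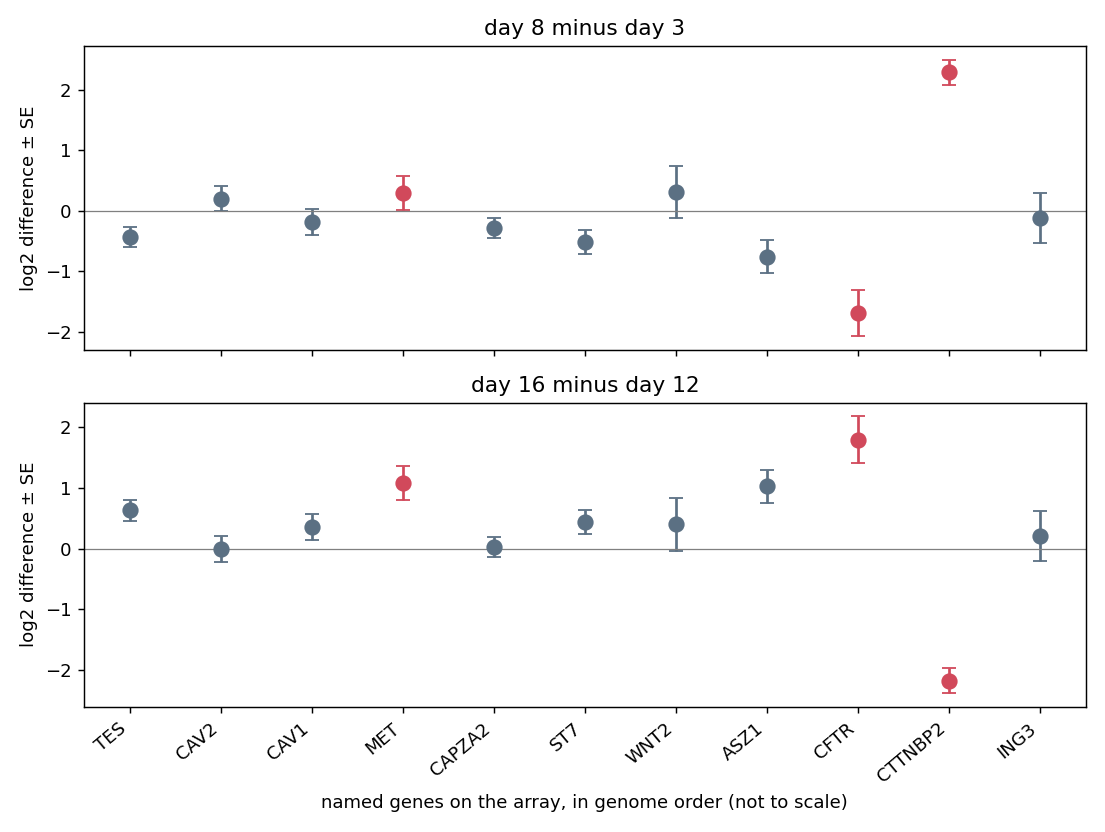
Log2 difference with its standard error (y axis) of the 11 named genes in genome order (x axis, not to scale), for day 8 minus day 3 (top) and day 16 minus day 12 (bottom), by the brightest probe of each gene. CFTR, CTTNBP2 and MET are red. CFTR (−1.69, then 1.79) and CTTNBP2 (2.29, then −2.17) stand on opposite sides of 0, and ASZ1 beside CFTR is at −0.76 and 1.02.

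Likeness was measured as the Pearson r over the 25 arrays with each of 513 other named genes, a description that includes the differences between days. The genes most like CFTR were GPCPD1 (0.88), ACLY (0.87), TXN (0.85), LYPLA2 (0.85) and TRA2B (0.83), and its neighbour ASZ1 came at place 6 with 0.81. CYP19A1, the aromatase that makes oestrogens, was least like it with −0.78, next to CTTNBP2 at place 512 and BTBD7 (−0.71). The genes most like CTTNBP2 were the cytochromes P450 CYP3A89 (0.92) and CYP3A97 (0.89), PLIN2, which coats lipid droplets (0.91), SLC11A1 (0.84) and P19, the uterine lipocalin (0.84). Least like it were SPRED1 (−0.93), RND3 (−0.88) and CD44 (−0.88). Among the genes most like MET were PPARGC1A (0.88), ANXA1 (0.87), MAOB (0.86) and KLF10 (0.86), and least like it were PTGFR, the receptor of prostaglandin F (−0.79), ITGA2B (−0.69) and RNF208 (−0.69). For MET, CFTR came at place 156 and CTTNBP2 at place 350.

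Of 43 other genes of ion and fluid transport, 4 had a tested probe. SLC2A5, a fructose transporter, rose from day 3 to day 8, when CFTR was lower, by 1.49 ± 0.38 (limma adjusted p = 0.0102, in 5 of 5 mares). From day 8 to day 12 it fell, the difference being −1.83 ± 0.38 (limma adjusted p = 0.0236, in 5 of 5 mares). From day 12 to day 16, when CFTR was higher, limma called 0 of 4 genes of the list (8.07% of all probes), and SLC5A1, which carries glucose with sodium, differed by 0.97 ± 0.43 without passing. CA12, a carbonic anhydrase, passed only in the limma F test over the days and lay at background on all arrays of at least 1 day.

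Of 48 genes of signalling by hepatocyte growth factor and related receptors, 4 had a tested probe, and neither the ligand HGF nor its activators were among them. Limma called 0 of 4 from day 0 to day 3 (12.7% of all probes) and 2 lower from day 3 to day 8 (7.72%). The same 2, CD44 and SPRED1, rose between days 12 and 16 (3.86% of all probes called higher). CD44, which can act as a co-receptor of MET, rose by 1.12 ± 0.22 (limma adjusted p = 0.00163), and SPRED1, an inhibitor of the RAS and MAP kinase pathway, by 1.03 ± 0.23 (0.00624), each in 5 of 5 mares. VEGFA was lower on day 0 than on day 16 by −2.07 ± 0.36 (limma adjusted p = 0.00256, in 5 of 5 mares), measured by the brightest of 10 probes. With normexp background correction and marked backgrounds replaced, this difference was −0.75 ± 0.23. The list's median from day 12 to day 16 was 0.77, against −0.07 for all probes.

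Of 45 genes of cortactin, actin and the striatin complex, 5 had a tested probe, and cortactin and the striatins were not among them. From day 12 to day 16, when CTTNBP2 was lower by −2.17, limma called 2 of 5 higher and 1 lower, against 3.86% and 4.22% of all probes. RND3, which loosens actin stress fibres, rose by 1.74 ± 0.29 (limma adjusted p = 0.000487), and the myosin chain MYH7 by 1.94 ± 0.37 (0.00173), while for the actin-severing GSN, which fell, the difference was −1.07 ± 0.25 (0.00749). Each had its direction in 5 of 5 mares. From day 3 to day 8, RND3 and MYH7 were called lower (MYH7 not with the slide in the model) and 0 of 5 higher, against 7.72% and 6.05% of all probes. Calls also fell in steps where CTTNBP2 differed little (0.38 and 0.16). RND3 and MYH7 were called lower from day 0 to day 3, by −1.08 ± 0.29 and −1.56 ± 0.37 (5.66% of all probes called lower). GSN was called higher from day 8 to day 12, by 1.59 ± 0.25 in 5 of 5 mares (0.626% of all probes called higher). CAPZA2, which caps actin filaments and lies between MET and CFTR, differed by −0.29 ± 0.17 from day 3 to day 8 and by 0.03 ± 0.17 from day 12 to day 16, and neither passed.

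Of 22 genes of sex steroid receptors and response, 8 had a tested probe, and 6 of 8 passed the limma F test over the days, against 35.8% of all probes. From day 3 to day 8, when CTTNBP2 was higher and CFTR lower, 3 rose (PGRMC1, FST and P19) and 0 fell, against 6.05% and 7.72% of all probes. From day 12 to day 16, 1 rose and 1 fell, against 3.86% and 4.22%. The one that rose was ESR1, the oestrogen receptor alpha, by 1.08 ± 0.25 (limma adjusted p = 0.00898), and FST, whose product binds activin, fell, the difference being −2.69 ± 0.20 (1.15e-08), each in 5 of 5 mares.

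Markers of cell types moved with some of these days. The signals of the stromal markers LUM and DCN were summed, relative to the 75th percentile of the array. Their sum ranged from 29.8 to 44.7 on day 0, from 8.63 to 25.1 on day 3 and from 11.8 to 16.1 on day 8. It ranged from 12.6 to 20.04 on day 12 and from 18.2 to 36.9 on day 16. From day 8 to day 12 these markers parted, with LUM lower and DCN higher in 5 of 5 mares each. From day 12 to day 16 both were higher in 5 of 5 mares, but limma called only LUM. The epithelial marker ESRP1 ranged from 5.85 to 12.6 on day 0, from 6.77 to 10.6 on day 3, from 6.62 to 8.20 on day 8, from 8.39 to 11.003 on day 12 and from 6.32 to 10.2 on day 16. Days 8 and 12 did not overlap, with more on day 12 in 5 of 5 mares, against 9.54% of all probes without overlap. The difference was 0.24 and limma did not call it, nor ESRP1 over the 5 days. Days 3 and 8 overlapped, as did days 12 and 16. ESRP1 differed by −0.03 ± 0.18 from day 3 to day 8 and by −0.19 ± 0.18 from day 12 to day 16, and neither passed. TAGLN, 1 of 7 markers of smooth muscle, ranged from 0.19 to 0.32 on day 12 and from 0.46 to 1.19 on day 16. The 4 tested of 14 leukocyte markers (CD2, GNLY, CD14 and CD68) summed to 1.31 to 1.71 on day 8 and to 2.74 to 3.91 on day 12. Their sum was 1.86 to 4.57 on day 0, 1.81 to 2.53 on day 3 and 2.46 to 6.88 on day 16. From day 8 to day 12 limma called only GNLY of the 4, and CD2 was higher in 3 of 5 mares. PECAM1 ranged from 0.86 to 1.22 on day 8 and from 1.42 to 2.14 on day 12. It was higher on day 12 in 5 of 5 mares, but limma did not call that step. The part of these cell types in the levels of CFTR, CTTNBP2 and MET was not tested.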

How the data were processed

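The authors deposited 1-colour intensities of 25 arrays, which per the file headers come from Agilent Feature Extraction 10.7.3.1 with the background subtracted and spatial trends removed within each array. The value table of the series held these same signals for 25 of 25 arrays. Per the labels' protocols, RNA was isolated with Trizol and labelled with Cy3. Each intensity was taken to log2 and expressed relative to its array's 75th percentile. Spots marked as outliers were set to missing (none of the 6 probes was) and spots of a probe averaged. Probes well above background on at least 4 of 5 arrays of some day were tested. A change of the 75th percentile itself would not be seen.

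Limma 3.58.1 in R 4.3.3 fitted all arrays with the day as the term. Tests are two-sided, with Benjamini-Hochberg adjustment over all probes within each comparison, called at 0.05. Standard errors and intervals are those of this model. Each gene was represented by its brightest probe. Symbols came from RefSeq transcripts (1307 probes, 620 genes); 538 named genes were tested. Likeness genes were the 5 highest and 3 lowest by r, symbols of LOC and a number left out. Some results of these rules are not reported here. The genes, lists and comparisons were chosen with earlier results of these data known. Lists without named probes could not be described, and probe or protein sequences were not used here.

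Arrays lay on 7 slides of 3 or 4 and were scanned on 4 days. Those of day 0 lay on slides 4 to 7 only and were scanned on scan days 3 and 4. Every other day of the cycle also had arrays from earlier scan days. Comparisons with day 0 therefore cannot be fully separated from slide and scan day. Arrays with the same number are of the same mare per the labels. Deviations from the day means correlated with a median r of 0.245 within mares (50 pairs of arrays) and −0.086 between mares. Counting only arrays that did not share a slide, the median r within mares was lower, at 0.12 (26 pairs). The value of 0.245 therefore does not separate the mare from the slide. The code was tested on simulated data. Python 3.11.15, pandas 2.3.3, numpy 2.4.6 and matplotlib 3.10.9 were also used.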

Additional observations from a re-analysis of the deposited data

Results flagged for a closer look

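Of 30 groups of 5 arrays (6 probes on 5 days), 2 held a value whose gap to the nearest other exceeded the critical value of 0.71 of the group's range, and chance alone flags about 1 in 20. CTTNBP2 on day 3 stood at 1.33 in mare 5, against 0.61 in the next mare (gap ratio 0.76). Without this array the difference of day 8 from day 3 was 2.46. MET on day 16 stood at 3.34 in mare 1, against 4.73 in the next mare (gap ratio 0.82), and the other MET probes were also lowest in this biopsy, at −1.86 and −2.01. The array of this biopsy also had the lowest 75th percentile of day 16, at 875. Without this array, day 16 exceeded day 12 by 1.39.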

How the results depend on the processing

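With 5 arrays a day and 6 probes, small differences between neighbouring days could not be resolved, and the dimmer CFTR probe was dim on days 0, 8 and 12. Leaving out any 1 array kept the sign of all 15 differences of the brightest probes. For CFTR these ranged from 0.45 to 0.93 (day 3 minus day 0), from −1.83 to −1.55 (day 8 minus day 3), from −0.45 to −0.07 (day 12 minus day 8), from 1.45 to 2.03 (day 16 minus day 12) and from −0.82 to −0.17 (day 0 minus day 16). In the same order they ranged for CTTNBP2 from 0.21 to 0.46, from 2.22 to 2.46, from 0.06 to 0.23, from −2.35 to −2.07 and from −0.76 to −0.48. For MET they ranged from −1.27 to −0.94, from 0.16 to 0.41, from 0.52 to 0.69, from 0.97 to 1.39 and from −1.23 to −0.71. With the replicate block (the mare as a term) the differences were the same, such as −1.69 for CFTR from day 3 to day 8, now with a standard error of 0.34. The median of all probes moved with the scaling, from −0.11 to 0.01 for day 3 minus day 0 with quantile normalization, and with normexp from 0.08 to 0.43 for day 8 minus day 3 and from 0.06 to −0.34 for day 12 minus day 8. The causes of the following shifts were not tested. With the array's signal as a covariate, day 0 minus day 16 was 0.17 for CFTR and −0.46 for MET, and day 3 minus day 0 was 0.04 for CFTR. With normexp background correction CTTNBP2 differed by 1.82 from day 3 to day 8 and by 0.62 from day 8 to day 12, and MET by 1.11 from day 8 to day 12 and, with the sign turned, by −0.15 from day 3 to day 8. With mare and slide as terms MET differed by −0.36 (day 3 minus day 0) and −1.47 (day 0 minus day 16), and as the mean of its 3 probes by −0.61 and −1.54. As the mean of both probes, CFTR differed by 1.10 and −0.96 in these comparisons. Slides 1 to 5 each held a single mare, so differences within them are those of that mare. Within single slides, with 1 array a day, CFTR differed by 1.76 and −0.82 (day 3 minus day 0), −0.98 (day 8 minus day 3), −1.13 (day 12 minus day 8), 3.18 (day 16 minus day 12), and −2.41 and 0.87 (day 0 minus day 16). CTTNBP2 differed within slides by −0.10 and 1.26 (day 3 minus day 0), 1.23 and 2.79 (day 8 minus day 3), −2.49 (day 16 minus day 12), and −0.10 and −1.58 (day 0 minus day 16). MET differed within slides by 0.28 (day 3 minus day 0), 0.86 (day 8 minus day 3), 1.13 (day 12 minus day 8), −0.011 and 1.65 (day 16 minus day 12) and −2.22 (day 0 minus day 16). The r within days was −0.55 for CFTR and CTTNBP2 and 0.26 for CFTR and MET once the slide was removed too.

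The counts of called probes over the whole array, used as the background, moved more. Leaving out each mare in turn gave 7503 to 11329 over the days, 1512 to 6415 for day 3 against day 0, 3090 to 3635 for day 8 against day 3, 0 to 147 for day 12 against day 8, 1253 to 2335 for day 16 against day 12 and 108 to 3025 for day 0 against day 16. The count of 0 by limma came without mare 3, where 3368 probes had an unadjusted p under 0.05. Normexp with marked backgrounds replaced gave 8525 for day 3 against day 0 and 7895 for day 0 against day 16. For day 12 against day 8, quantile normalization gave 606, no filter on dim probes 213 and the replicate block 855, and no filter gave 3301 for day 0 against day 16. Between mares the count was 5 with the slide as a term, 2399 with quantile normalization, 1450 with normexp with marked backgrounds replaced, 1442 without day 3, 800 without day 8 and 648 without day 12. None of the 3 genes differed between mares at 0.05 under these alternatives. Of the calls on pathway, neighbour and marker genes, CAV2 (−0.87, day 0 minus day 16), GNLY (−0.86, day 3 minus day 0), MYH7 (−1.14, day 8 minus day 3) and TAGLN (−1.01, day 0 minus day 16) lost theirs with the slide as a term.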

Other observations

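On day 16 the biopsy of mare 1 had the lowest value of the 5 mares for all 3 genes by their brightest probes, with CFTR at 1.25, CTTNBP2 at 0.56 and MET at 3.34. The 75th percentile of its array was 875, against 1941 to 3701 on the other arrays of day 16, and 86.2% of its spots were well above background. Whether the signal of the array bears on these low values was not tested. Mare 5 had the highest CFTR on days 0, 8 and 12, at 2.83, 1.03 and 1.25, and the highest CTTNBP2 on days 3 and 16, at 1.33 and 1.65, and the lowest CTTNBP2 on days 0 and 8, at 0.08 and 2.57.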
